A study of Mus musculus with 2 samples.

Results

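Transcripts of 10 genes that move fatty acids into macrophages and store them in lipid droplets were compared between 2 RNA sequencing libraries of wild-type mouse bone marrow-derived macrophages, which are macrophages grown in culture from marrow progenitors. The genes are Lpl, Cd36, Pparg, Fabp4, Fabp5, Plin2, Angptl4, Cpt1a, Hilpda and Acsl1, and all 10 were found by symbol among the 15576 genes measured. The members were chosen by their FPKM in this same comparison, around Lpl, Cd36 and Pparg, which lay lower in the treated cells. Their differences are therefore given as a description, with no test. For the DCA library the cells received deoxycholic acid, which gut bacteria make from a primary bile acid, at 100 µM for 24 h. Collection is given as a day later, and whether that day is the treatment itself is not clear from the labels. The NC library is from cells without it. The sources used here do not give the mouse strain, age and sex, the number of animals, the vehicle of the NC cells or the growth factor of the culture. With 1 library per group no difference could be set against the spread between cultures.

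In macrophages, lipoprotein lipase releases fatty acids from the triglyceride of lipoproteins at the cell surface, and the scavenger receptor CD36 helps to carry fatty acids and oxidised lipoproteins into the cell. Fatty acid-binding proteins shuttle them through the cytosol, acyl-CoA synthetases activate them, and they are then either stored as triglyceride in droplets coated by perilipins or passed into mitochondria through carnitine palmitoyltransferase. PPARγ, a nuclear receptor that senses fatty acids and pairs with the retinoid X receptor, is a known activator of Lpl, Cd36, Fabp4, Plin2 and Angptl4.

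In units of 1e6 reads, the NC library held 59.2 and the DCA library 56.6. The label of the cells was set beside the macrophage genes Adgre1, Csf1r and Cd68. They were at 61.6, 90.2 and 389 FPKM (reads per kilobase and per 1e6 reads) in DCA and 65.7, 92.3 and 389 in NC. These genes do not show that the cultures held macrophages alone. The neutrophil genes S100a8, S100a9 and Ly6g were at 1043, 1699 and 2.55 FPKM in DCA and 851, 1471 and 1.84 in NC. Markers of further cell types are given below. A gene was set against the size limits when its mean FPKM was at least 1, which held for 9656 genes and for 9 of the 10 members. Angptl4 was the exception. These genes are called tested below, although no statistical test was made. Ratios are DCA over NC, with exact Clopper-Pearson 95% intervals on the rebuilt reads, which cover counting error only. PCR copies widen the true error beyond them.

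Lpl, Cd36 and Pparg were lower in DCA by 18.9%, 12.2% and 24.5%. They were the 3 of 9 tested members at least 1.1-fold lower in FPKM + 1, a limit passed by 4.79% of all tested genes. None was at least 1.1-fold higher, a limit passed by 8.99%. With each library rescaled to a sum of 1e6, these shares were 12.2% lower and 14.3% higher of the 11706 genes then past the filter. In FPKM + 1, only Lpl was past 1.2-fold, on the lower side, as were 0.715% of all tested genes, with 2.11% higher by that much. Pparg, lower by 24.5% in plain FPKM, fell short of 1.2-fold on that scale, where the added 1 weighs on its low level. The remaining genes of the set lay nearer to equality, apart from Angptl4, which was low in reads and higher in DCA. The counting interval lay below equality for 6 of the 9 tested members, against 20.1% of the tested genes with rebuilt reads, and above equality for none of them, against 25.7%. Because the set was built on this comparison, nothing is read from these counts. The median difference in log2(FPKM + 1), DCA minus NC, was -0.10 over the 9 members and 0.01 over all tested genes.

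**Figure D1:**
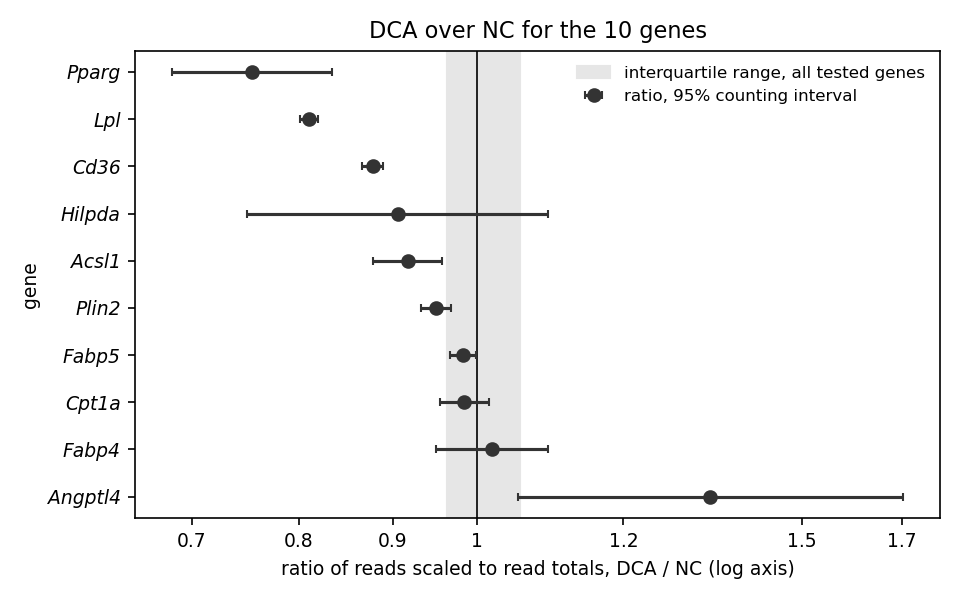
Ratio of reads scaled to the read totals, DCA over NC, on a log axis for each of the 10 genes. Points are single ratios, bars are 95% counting intervals, and the grey band is the interquartile range of all tested genes, from 0.963 to 1.06. Pparg, Lpl and Cd36 lie at 0.755, 0.811 and 0.878, left of the band, and Angptl4 at 1.34, right of it.

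Lpl encodes lipoprotein lipase (ENSMUSG00000015568, GRCm38 chromosome 8, 68880491 to 68907448, plus strand). It had 90.2 FPKM in NC and 73.1 in DCA. At 70743 NC and 54787 DCA reads it rested on more reads than any other member, and its ratio of 0.811 had an interval of 0.802 to 0.820. Scaled to the NC total, the DCA library held 13404 fewer Lpl reads. Among the 1247 genes with at least 20000 reads in both libraries together, none had a lower ratio than Lpl. Its difference of -0.30 in log2(FPKM + 1) was undercut by 49 of the 9656 tested genes. No other annotated gene overlaps its exons.

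Angptl4 encodes a secreted inhibitor of lipoprotein lipase (ENSMUSG00000002289, chromosome 17, 33773750 to 33781830, minus strand). It lay the other way, with 0.339 FPKM in NC and 0.453 in DCA, from 126 NC and 161 DCA reads. The ratio was 1.34 (1.05 to 1.702), so its interval left out equality narrowly, as did the interval above equality for 23.9% of all genes with reads when no filter on level was used. Its low level kept it under the filter, and on the log2(FPKM + 1) scale the difference was 0.12. Per kilobase of its principal transcript, Lpl had 274 times the level of Angptl4 in DCA and 451 times in NC.

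None of the tested partners of the lipase lay as low as Lpl. Of 18 genes listed for its maturation, anchoring, inhibition and uptake, 11 were tested, with a median difference of -0.003. None was at least 1.1-fold lower and 1 was higher, against 4.79% and 8.99% of all tested genes. Lmf1 and Lmf2, which act in folding the lipase, had ratios of 1.05 (0.975 to 1.14) and 1.04 (0.997 to 1.09), and Sel1l, which acts in its exit from the endoplasmic reticulum, 0.970 (0.949 to 0.991). Apoc2, which encodes the activating apolipoprotein of the lipase, was the member past the limit, with 4.92 FPKM in NC and 7.17 in DCA and a ratio of 1.46 (1.31 to 1.63). Its exons overlap the annotated gene Gm44805 on the opposite strand, so its reads are uncertain. Lrp1, an endocytic receptor with the most reads of the list, had a ratio of 0.945 (0.938 to 0.952). The lysosomal lipase gene Lipa was at 0.934 (0.924 to 0.944), the lowest ratio among the tested genes of the list.

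Cd36 encodes the scavenger receptor (ENSMUSG00000002944, chromosome 5, 17781690 to 17888801, minus strand). It had 54.4 FPKM in NC and 47.8 in DCA, from 48545 NC and 40710 DCA reads. The ratio of 0.878 had an interval of 0.866 to 0.889, and 3 of the 1247 deeply read genes lay lower, Lpl among them. In log2(FPKM + 1) the difference was -0.18, with 211 tested genes lower.

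Other genes of fatty acid uptake and activation lay slightly lower in large number. Acsl1, an acyl-CoA synthetase of macrophages and fat cells (ENSMUSG00000018796, chromosome 8, 46471037 to 46536051, plus strand), had 3.85 FPKM in NC and 3.52 in DCA. Its ratio was 0.917 (0.877 to 0.957) on 4377 NC and 3833 DCA reads. The annotated gene Gm45244 on the opposite strand covers 1039 of its 10483 exonic bases.

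Of the 15 tested genes in a list of 26 further transporters, binding proteins, synthetases and thioesterases, 13 had a difference below 0, against 46.5% of all tested genes. The differences were small, with a median of -0.04, and 1 gene passed 1.1-fold, on the lower side, against 4.79% of all tested genes. That gene was Acsl3, a synthetase of the endoplasmic reticulum and of nascent droplets, with a ratio of 0.814 (0.772 to 0.858) on 3175 NC and 2469 DCA reads. Its exons overlap Utp14b, so this value is uncertain. Slc27a1, a fatty acid transport protein with the most reads of the list, had a ratio of 0.940 (0.917 to 0.963).

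The cytosolic carriers differed little. Fabp4, a target gene of PPARγ (ENSMUSG00000062515, chromosome 3, 10204088 to 10208576, minus strand), had 5.33 FPKM in NC and 5.43 in DCA, a ratio of 1.02 (0.949 to 1.09) on 1619 NC and 1575 DCA reads. Fabp5 (ENSMUSG00000027533, chromosome 3, 10012548 to 10016607, plus strand) lies 187 kb away and had 122.3 FPKM in NC and 120.1 in DCA, a ratio of 0.983 (0.967 to 0.999) on 30585 NC and 28716 DCA reads. Fabp4 was the only tested member with a difference above 0. The Fabp5 transcript shares at least 90% identity over at least 200 bases with 5 annotated processed pseudogenes, none of which has a value here, so reads that fit several of these copies could be missing from its count. Per kilobase of principal transcript, Fabp5 stood 16.6 times above Fabp4 in DCA and 17.1 times in NC.

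Pparg encodes the nuclear receptor (ENSMUSG00000000440, chromosome 6, 115360951 to 115490399, plus strand). It had 1.94 FPKM in NC and 1.47 in DCA. Its 940 NC and 678 DCA reads gave a ratio of 0.755, the lowest of the 10 genes, with an interval of 0.683 to 0.834 that overlaps that of Lpl. On the log2(FPKM + 1) scale, which understates the change of genes at this level, the difference was -0.25, and 77 tested genes lay lower. With a pseudocount of 5 the difference was -0.10, short of 1.1-fold, and as the log2 ratio of rebuilt reads it was -0.41.

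Other receptors and coregulators were close to equality. Of 23 genes in that list, 17 were tested and none was 1.1-fold apart in either direction, with a median difference of -0.04. The shares of all tested genes past that limit were 4.79% lower and 8.99% higher. Ppard, the related receptor PPARδ, had a ratio of 1.04 (0.982 to 1.11). Rxra, a partner of PPARγ, had 3.61 FPKM in NC and 3.47 in DCA, and no ratio because its FPKM did not convert to whole reads. Ncor1, a corepressor with the most reads of the list, was at 1.001 (0.983 to 1.02). Cebpa and Cebpb, whose products act with PPARγ in fat cells, were at 0.917 (0.884 to 0.951) and 0.920 (0.877 to 0.964), and exons of both overlap another gene. Ppard, Rxra, Cebpa and Cebpb were chosen after their values were seen.

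Of 30 other genes listed as targets of the PPAR receptors, 22 were tested. None was at least 1.1-fold lower and 5 were at least 1.1-fold higher, against 4.79% and 8.99% of all tested genes. The median difference was 0.02. The 5 were Klf4, a transcription factor, at 1.26 FPKM in NC and 4.12 in DCA, Ehhadh, Acadvl, Cyp27a1 and Cpt2. The FPKM of Klf4 did not convert to whole reads, so it has no ratio or counting interval. Ehhadh, an enzyme of peroxisomal oxidation, had 173 NC and 248 DCA reads and a ratio of 1.5003 (1.23 to 1.83). Acadvl and Cpt2, which act in mitochondrial oxidation of long-chain fatty acids, were at 1.22 (1.16 to 1.29) and 1.18 (1.09 to 1.28). Exons of Acadvl overlap Dvl2, so its value is uncertain. Cyp27a1, a sterol hydroxylase, was at 1.19 (1.103 to 1.29). Ucp2, a mitochondrial carrier with the most reads of the list, was at 1.01 (0.997 to 1.03). Cpt1b, the muscle form of the mitochondrial carnitine palmitoyltransferase, lay under the level filter and was lower in DCA, with 220 NC and 40 DCA reads and a ratio of 0.190 (0.132 to 0.267). Its exons overlap the annotated gene Gm44502. Without the filter it was the 1 gene of the list at least 1.1-fold lower, against 4.67% of all genes. Acadvl, Cyp27a1, Cpt2 and Cpt1b were named after their values were seen.

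**Figure D2:**
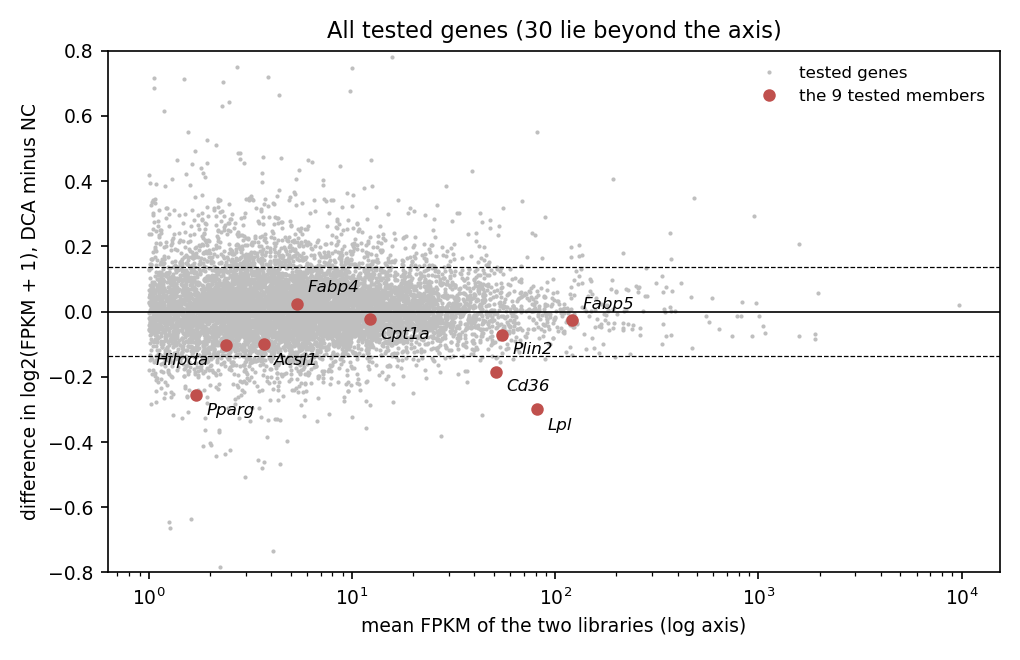
Difference in log2(FPKM + 1), DCA minus NC, against the mean FPKM on a log axis for all tested genes (grey) and the 9 tested members (red). Dashed lines mark 1.1-fold, and 30 genes lie beyond the axis. Lpl at -0.30 and Cd36 at -0.18 lie on the lower edge of the cloud of abundant genes, while Pparg at -0.25 lies among genes of low level with a wider spread.

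Promoter windows from RefSeq (GRCm38.p6) were found for 6 of the 10 genes, Cd36, Pparg, Plin2, Cpt1a, Hilpda and Acsl1, in 10 windows, and not for Lpl, Fabp4, Fabp5 and Angptl4. The 250 bases before each start were searched on both strands for AGGTCA, the nuclear receptor hexamer, for its direct repeat with 1 base of any kind between the copies, which is the form bound by PPAR and RXR pairs, and for ACGTG and GCGTG, the core letters bound by hypoxia-inducible factors. Sequences are shown for Cd36 and Pparg, which were lower in DCA, and for the droplet coat gene Plin2, which differed less. Each is on the strand of its gene and ends before the last 10 bases next to the start, and capitals mark matches (TGACCT and CACGC are AGGTCA and GCGTG read on the other strand). The Cd36 stretch lies inside the annotated gene, downstream of its outermost start. The Pparg stretch is the furthest downstream of its 3 windows and also lies inside its gene. It is the one of the 3 that holds no annotated exon.

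Cd36, chr5:17835907-17836146, minus strand: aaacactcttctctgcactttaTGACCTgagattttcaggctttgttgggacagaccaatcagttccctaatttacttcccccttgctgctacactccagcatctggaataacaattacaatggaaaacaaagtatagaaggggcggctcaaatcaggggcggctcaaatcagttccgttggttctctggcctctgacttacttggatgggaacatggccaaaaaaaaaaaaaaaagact
Pparg, chr6:115421816-115422055, plus strand: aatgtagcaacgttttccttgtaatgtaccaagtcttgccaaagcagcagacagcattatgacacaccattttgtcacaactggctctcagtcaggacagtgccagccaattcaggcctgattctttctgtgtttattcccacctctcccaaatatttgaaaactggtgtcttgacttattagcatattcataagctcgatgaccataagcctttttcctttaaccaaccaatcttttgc
Plin2, chr4:86670070-86670309, minus strand: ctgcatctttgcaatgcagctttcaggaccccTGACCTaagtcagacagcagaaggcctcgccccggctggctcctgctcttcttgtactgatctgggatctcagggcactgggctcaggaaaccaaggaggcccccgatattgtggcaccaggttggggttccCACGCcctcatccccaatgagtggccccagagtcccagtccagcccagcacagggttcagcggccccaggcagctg

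The hexamer begins 228 bases before the Cd36 start and 218 bases before the Plin2 start, and it is in neither strand of the Pparg stretch. Both other Pparg windows hold it, at 28 and 9 bases before their starts, as does that of Cpt1a at 94. In all, 5 of the 10 windows of these genes hold the hexamer, against 14.0% of the 32851 windows of all genes in the table. The full repeat is in none of the 10 windows and in 0.0335% of all windows. ACGTG or GCGTG is in 4 of the 10 windows, against 38.6% of all, and the second Hilpda window holds 3 such matches, 111, 43 and 8 bases before its start. A match is a description of the letters and says nothing of binding.

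Plin2 encodes perilipin 2, the main droplet coat protein of macrophages (ENSMUSG00000028494, chromosome 4, 86648386 to 86670060, minus strand). It had 56.3 FPKM in NC and 53.5 in DCA, a ratio of 0.9501 (0.932 to 0.968) on 22948 NC and 20833 DCA reads. Its transcript shares 96.1% identity over 259 bases with the annotated pseudogene Gm12551, which has no value here. The difference of 5% excluded equality by counting error, but 15.5% of the tested genes lay lower. Hilpda, which encodes a small droplet protein that inhibits triglyceride breakdown and is induced by hypoxia (ENSMUSG00000043421, chromosome 6, 29272488 to 29275446, plus strand), had 2.52 FPKM in NC and 2.29 in DCA. Its ratio of 0.906 (0.7499 to 1.09) rested on 245 NC and 212 DCA reads, an interval that includes equality.

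Of 29 other genes of triglyceride synthesis and droplet formation, 19 were tested, with a median difference of -0.005. At least 1.1-fold lower was 1 gene and 2 were higher, against 4.79% and 8.99% of all tested genes. Agpat1, an acyltransferase of triglyceride synthesis whose exons overlap Egfl8, was at 0.887 (0.853 to 0.923). The higher genes were Soat2, a cholesterol acyltransferase, at 1.26 (1.07 to 1.49), and Hsd17b11, a droplet-associated dehydrogenase, at 1.129 (1.09 to 1.17). Soat1, the acyltransferase that makes cholesteryl esters in macrophages and had the most reads of the list, was at 0.969 (0.954 to 0.985). Plin3, another droplet coat gene, was at 0.923 (0.891 to 0.957) and was chosen after its value was seen. The coat genes Plin1 and Plin5 had 0 reads in DCA and 4 each in NC.

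Genes of lipolysis, with 6 of 10 tested, had a median difference of 0.03. On the higher side 1 gene was past 1.1-fold, against 8.99% of all tested genes, and none on the lower side, against 4.79%. The higher gene was G0s2, an inhibitor of adipose triglyceride lipase, at 1.18 (0.977 to 1.43), an interval that includes equality. Nceh1, a cholesteryl ester hydrolase with the most reads of the list, was at 0.923 (0.904 to 0.942). Pnpla2, which encodes adipose triglyceride lipase, was at 1.04 (1.003 to 1.08) and was chosen after its value was seen.

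Cpt1a, whose product admits long-chain fatty acids to mitochondria (ENSMUSG00000024900, chromosome 19, 3322334 to 3385733, plus strand), had 12.4 FPKM in NC and 12.2 in DCA. On 8692 NC and 8172 DCA reads the ratio was 0.984 (0.955 to 1.01), which includes equality. Cpt2, the next enzyme of the same shuttle, was at 1.18, as given above. None of the 14 tested genes of fatty acid synthesis, of 18 listed, was 1.1-fold apart, and their median difference was -0.03. Of all tested genes, 4.79% were that much lower and 8.99% higher. Scd2, a desaturase with the most reads of that list, was at 0.976 (0.964 to 0.987).

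Hypoxia-inducible factor acts on Hilpda and Angptl4, and a list of its targets was therefore set beside them. The list also holds Hif1a and Epas1, which encode forms of the factor itself. All 19 genes of the list were measured and 17 tested, with a median difference of 0.02. At least 1.1-fold higher were 3 genes and 1 was lower, against 8.99% and 4.79% of all tested genes. Ankrd37, whose exons overlap other genes, and Egln3, an oxygen-sensing hydroxylase, were at 1.38 (1.18 to 1.60) and 1.23 (1.14 to 1.33). Vegfa, a growth factor of blood vessels named after its value was seen, was at 1.15 (1.12 to 1.19). Epas1, which encodes the factor HIF-2α, was the lower gene, at 0.733 (0.640 to 0.839) on 527 NC and 369 DCA reads. Ldha, a glycolytic enzyme with the most reads of the list, was at 0.980 (0.966 to 0.994).

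Over the 8 lists together, without the 10 genes, 119 genes were tested, of which 3 were at least 1.1-fold lower and 12 higher, and the median difference was -0.01. The shares of all tested genes past these limits were 4.79% and 8.99%. The lists were written with earlier results of these data known.

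**Figure D3:**
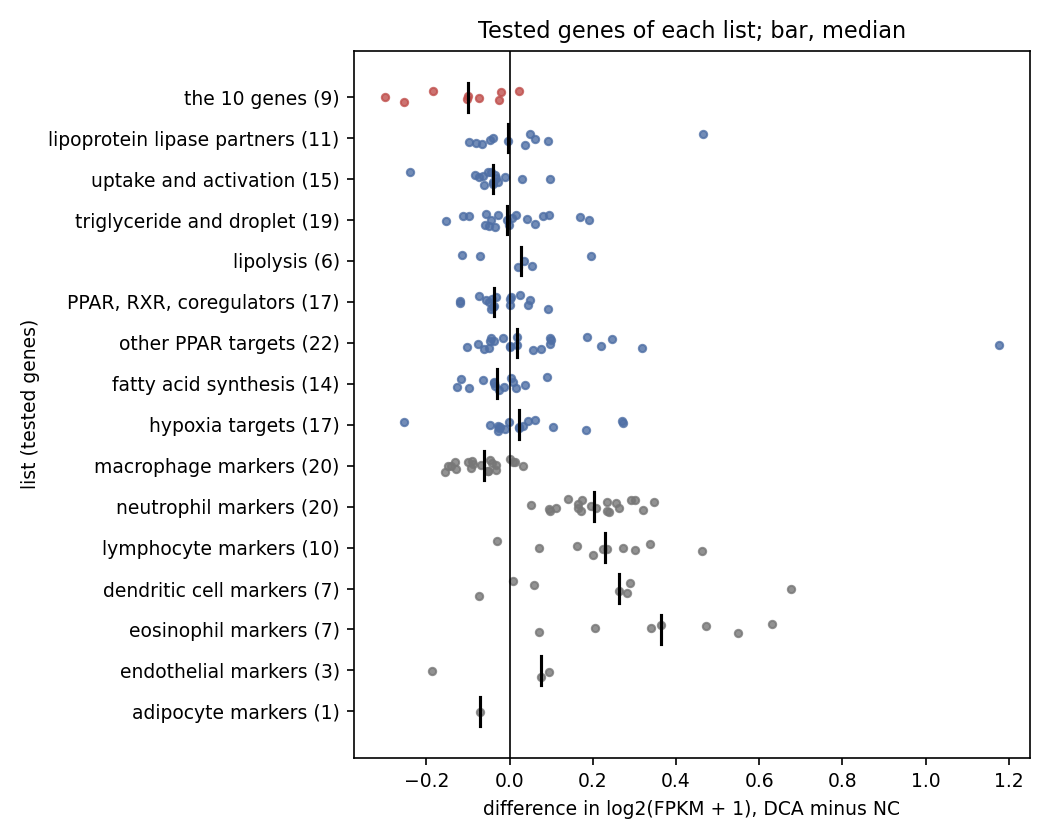
Difference in log2(FPKM + 1), DCA minus NC, of each tested gene in the set (red), the pathway lists (blue) and the cell type markers (grey), with black bars at the medians. The set has its median at -0.10, the macrophage markers at -0.06, and the neutrophil markers at 0.20.

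Levels of different genes can be compared only per true length, which the deposited FPKM does not give because a gene's length there is the sum of its transcripts. Reads were therefore divided by the length of a principal transcript. On that scale the order was the same in DCA and NC. Fabp5 led with 514 reads per kilobase and 1e6 reads in DCA and 523 in NC, followed by Lpl with 235 and 290, Cd36 with 212 and 241 and Plin2 with 195 and 205. Cpt1a had 33.5 and 34.0, Fabp4 31.1 and 30.5 and Acsl1 17.4 and 19.0. Pparg, Hilpda and Angptl4 were the least abundant, with 6.78, 3.82 and 0.860 in DCA and 8.99, 4.21 and 0.643 in NC. With the union of all annotated exons as the length, Cd36 led instead, with 200.5 and 228 against 92.4 and 114 for Lpl, since the exons annotated for Lpl sum to 10478 bases and its principal transcript to 4115. The order of Lpl, Cd36, Fabp5 and Plin2 therefore depends on the length chosen.

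**Figure D4:**
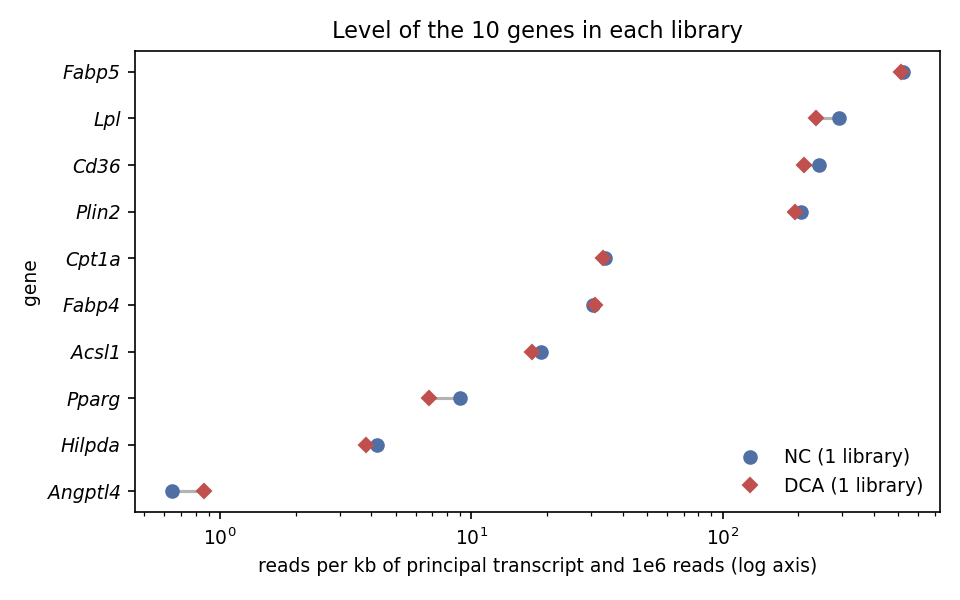
Level of the 10 genes in reads per kilobase of principal transcript and 1e6 reads, on a log axis, with 1 point per library. Levels run from 0.643 for Angptl4 to 523 for Fabp5, and the DCA point lies visibly left of the NC point for Lpl, Cd36 and Pparg.

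Markers of other cells in a marrow culture differed between the same libraries, and their part in the differences of Lpl, Cd36 and Pparg was not tested. In bulk RNA, fewer cells of a type and less RNA per cell cannot be told apart. For comparison with the marker counts here, 46.5% of all tested genes had a difference below 0. At least 1.1-fold lower were 4.79% of them, and 8.99% were higher by that much. Of 20 tested macrophage markers, 16 had a difference below 0 and 3 were at least 1.1-fold lower. Their median ratio was 0.957, and all 21 summed to 3494 FPKM in DCA and 3658 in NC. Of these sums, 1 gene, Ctsd, gave 1850 FPKM in DCA and 1941 in NC. Sums of FPKM in this paragraph are thus weighted to single genes of high FPKM. Their ratios ran from 0.896 to 1.02. All 20 neutrophil markers had a difference above 0, 16 by at least 1.1-fold, with a median ratio of 1.15 and sums of 4563 and 3871 FPKM. To these sums S100a8 gave 1043 FPKM in DCA and 851 in NC, and S100a9 gave 1699 and 1471. S100a8, S100a9 and Ly6g had ratios of 1.22, 1.15 and 1.39. Of 16 lymphocyte markers 10 were tested, 8 of them at least 1.1-fold higher, with a median ratio of 1.204 and sums of 205.8 and 169.8 FPKM. Cd79a and Cd79b were at 1.27 and 1.24. Eosinophil markers, 7 of 9 tested, had 6 at least 1.1-fold higher, a median ratio of 1.36 and sums of 125.9 and 87.0 FPKM. Prg2, Epx and Ear1 were at 1.47, 1.90 and 1.36. Dendritic cell markers, 7 of 11 tested, had 4 at least 1.1-fold higher, a median ratio of 1.22 and sums of 208.8 and 182.5 FPKM. Flt3, Zbtb46 and Ccr7 were at 1.05, 0.935 and 1.68.

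Fat cells, endothelial cells and stromal cells also express several of the 10 genes. Of 12 adipocyte markers 6 had a value, and all of these but Lipe were below 0.1 FPKM in both libraries, with sums of 2.38 FPKM in NC and 2.18 in DCA. Cfd, which encodes the fat cell protein adipsin, had 5 reads in DCA and 0 in NC. Pck1 also had more reads in DCA, with 7 against 5 in NC. Retn, Plin1 and Lipe lay the other way, with 0, 0 and 1927 reads in DCA and 11, 4 and 2164 in NC. The interval for Retn, 0 to 0.417, left out equality. These 4 genes beside Cfd were named after their values were seen. Of 11 stromal markers 10 had a value and none a mean of 1 FPKM, with sums of 0.379 FPKM in NC and 0.526 in DCA. Pdgfrb, the stromal marker with the most reads, had 107 NC and 185 DCA reads and a ratio of 1.81 (1.42 to 2.32). The stromal genes Dcn and Pdgfra had 0 reads in both libraries. The defining collagen genes Col1a1, Col1a2 and Col3a1 had 47, 3 and 0 reads in DCA and 56, 0 and 4 in NC. Of 11 endothelial markers 8 had a value and 3 were tested, with sums of 7.12 FPKM in NC and 6.97 in DCA. Of the 3, Vwf, with 4245 NC and 4444 DCA reads, and Pecam1 had ratios of 1.096 (1.05 to 1.14) and 1.08 (1.02 to 1.14), and Kdr was at 0.787 (0.716 to 0.865) on 1020 NC and 767 DCA reads. Cdh5, under the level filter, was at 0.676 (0.535 to 0.852) on 192 NC and 124 DCA reads. Across all tested genes the difference had a Spearman correlation of 0.02 with the GC content and of -0.10 with the length of the principal transcript over 9644 genes, which share both libraries.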

How the data were processed

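The table deposited by the authors gives FPKM, reads per kilobase and per 1e6 reads, for 15576 genes, in 1 column per library. Each library was grouped by its treatment label and each column matched by title. The aligner STAR (2.5.0c), the counter HTSeq (0.6.0) and the build GRCm38 are named per the submitters' processing notes, beside Picard, bedtools and DESeq2. The sources used here do not give the strand setting or any filter.

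GENCODE vM21 holds 15548 of the identifiers. When a gene's length was taken as the sum of its annotated transcripts, the FPKM converted to whole reads, within 0.05 of a read, for 11371 of the 11794 genes under 5000 reads, which gave the read totals and each gene's reads. All 10 members came out whole. Differences were taken in log2(FPKM + 1) for genes whose mean FPKM reached 1, with no statistical test. Size limits were 1.1-fold and 1.2-fold. The functions were tested on simulated data. Calculations used Python 3.11.15, pandas 2.3.3 and SciPy 1.17.1.

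The members and lists were chosen with earlier results of these data known. Beside the members, the genes named are, per pathway list, up to 2 in each direction past 1.1-fold and the one with the most reads, and the first 3 of each marker list with a value. Exons overlapping by position on either strand were counted as overlapping. Other pseudocounts, filters, scalings and gene lengths were tried.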

Additional observations from a re-analysis of the deposited data

How the results depend on the processing

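No paired analysis was possible because each group has 1 library, and for the same reason no library could be left out. Lpl, Cd36 and Pparg were below 0 in each of the settings tried. Lpl was at -0.32 with each library rescaled to 1e6. Pparg was at -0.10, under the 1.1-fold limit, with pseudocount 5 and at -0.41 as the ratio of rebuilt reads. The number of members at least 1.1-fold lower ran from 2 to 4. It was 2 of 9 with pseudocount 5, against 1.1% of all genes, and 2 of 6 at a mean FPKM of at least 5, against 3.4%. It was 4 of 9 as ratios of rebuilt reads, against 8.34%, and 4 of 10 with each library rescaled to 1e6, against 12.2%. In that last setting 1 member, Angptl4, was at least 1.1-fold higher, against 14.3%. Over the pathway lists without the members, 0 of 119 genes were at least 1.1-fold lower and 6 higher with pseudocount 5. The shares of all genes were then 1.1% and 2.9%. With each library rescaled to 1e6, 8 of 134 were lower and 21 higher, beside the shares of 12.2% and 14.3% above. When the mean FPKM had to reach 5, 1 of 74 was lower and 6 higher, against 3.4% and 6.99% of all genes. The lower count was 5 of 155 without a filter on low values, against 4.67% of all genes. Without genes with overlapping exons it was 1 of 72, against 4.7%. Under the lengths by exon union and by principal transcript, chosen after seeing the data, 3 of 9 members were lower. The shares of all genes were then 6.81% and 8.11%. The median of the endothelial markers changed sign, to -0.11 with each library rescaled to 1e6 and -0.02 without a filter. That of the dendritic cell markers fell from 0.26 to 0.09 with each library rescaled to 1e6 and to 0.04 without a filter. At under 300 reads, as for Hilpda and Angptl4, the counting interval is wide. The log2(FPKM + 1) scale understates genes of low FPKM.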

Other observations

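Among lipid genes under the level filter, a few had low read counts that were unequal between the libraries. Ces1d, a carboxylesterase that hydrolyses triglyceride, was at 11.0 (4.78 to 31.1), from 63 DCA and 6 NC reads, which are uncertain because similar carboxylesterase genes lie beside it. Ppargc1b, a coactivator of PPAR receptors and mitochondrial genes, had 228 NC and 294 DCA reads, a ratio of 1.35 (1.131 to 1.61). Slc27a2, an acyl-CoA synthetase of peroxisomes whose exons overlap another gene, had 7 NC and 25 DCA reads, a ratio of 3.74 (1.57 to 10.2). Cpt1b, described with the targets of the PPAR receptors, lay lower, with 220 NC and 40 DCA reads. Fabp7, a fatty acid-binding protein of brain, also lay lower, with 84 NC and 54 DCA reads and a ratio of 0.673 (0.469 to 0.958). These genes were chosen after their values were seen.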
